A study of Drosophila melanogaster with 135 samples.

Results

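Glutathione S-transferases (GSTs) of Drosophila melanogaster were taken as every gene whose symbol begins with Gst, a class letter (D, E, O, S, T or Z) and a digit. The rule found 35 of the 17023 genes in the mRNA tables, of which 11 were of the delta class, 14 of the epsilon class, 3 of the omega class, 1 of the sigma class, 4 of the theta class and 2 of the zeta class. The mRNA of adult male flies was measured in dissected, pooled muscles and heads. The mutants carried CRISPR/Cas9 deletions in genes for subunits of Polycomb Repressive Complex 2 (PRC2), the enzyme that methylates histone H3 at lysine 27, and the study analysed them as heterozygotes that had been repeatedly crossed to the control line. The single mutants were esc (allele esc289), E(z) (E(z)239), Pcl (libraries labelled Pcl421, Pcl422 and Pcl423, 1 each in each tissue), Su(z)12 (Su(z)12253) and, in muscle alone, p55 (p55192), and the double mutants were esc E(z) (esc289 with E(z)239) and Pcl Su(z)12 (Pcl421 with Su(z)12253). The control (WT) in every comparison was line 5905, a w1118 stock, so that control and backcrossed mutants share the white mutation. All flies were kept on standard medium at 25ºC and were 30 days (30d) old, except for 1 group of WT muscles at 3 days (3d). The question of the comparisons was how expression differs between aged and young muscle and between PRC2 mutants and WT at 30d.

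GSTs couple the tripeptide glutathione to electrophilic compounds, which makes toxins, insecticides and products of lipid peroxidation more soluble and easier to excrete. In insects the delta and epsilon classes are the large, expanded classes known for detoxification and insecticide resistance, whereas the omega, sigma, theta and zeta classes have relatives in many animals. Several members are known as targets of the oxidative stress factor cnc, the fly relative of Nrf2, which is held in check by Keap1 and pairs with maf-S.

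The members lay in a few clusters of neighbouring genes (dm6 genome, BDGP6 gene annotation). All 11 delta genes were within 20.8 kb at 3R:12364776-12385624. Of the 14 epsilon genes, GstE1 to GstE10 were within 13.2 kb at 2R:18396638-18409835 and are called the GstE cluster here, and GstE11 was close by at 2R:18503608-18505025. GstE12, GstE13, GstE14, the sigma gene GstS1 and the theta genes GstT1 and GstT2 were elsewhere on 2R, the 3 omega genes were on 3L, GstT3 and GstT4 were on X, and both zeta genes were on 3R. One of the mutated genes, Pcl, is on the same arm as the epsilon genes, at 2R:18135426-18139990, and the genes of the GstE cluster were 256.6 to 269.1 kb from it and GstE11 363.6 kb. The reads were counted without regard to strand, so that reads from overlapping genes on opposite strands cannot be told apart, and this touched GstE1 with GstE10, GstE9 with imd, GstE12 with CG3894, GstE13 with CG18659, GstO2 with se and GstT2 with CG12926. No 2 members shared an exonic word of 100 bases. The core of the antioxidant response element, the motif that cnc binds (TGACNNNGC, searched on both strands), was in the 250 bases before to 50 bases after the start of 1 of 35 members, GstE3 (2.86%), against 1394 of 16593 genes (8.4%), which says of the others only that these letters are not in this window.

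The deposited values were means over the 3 libraries of a group, in normalised read counts (the read count of a gene divided by the size factor of its library). For means under 1000 the whole reads of the single libraries were recovered from the digits of the means, which succeeded for 97.18 to 100% of such genes. Values per library are given in normalised counts, and libraries are numbered within a group by rising size factor, which is a name and not the replicate number of the labels. The recovered reads came to 1245145 to 2748008 per library (median 1847478). Genes with a mean of at least 5 over the 2 groups were tested with limma on log2(normalised count + 1), and a gene is called at a Benjamini-Hochberg adjusted p under 0.05 over all genes tested. The fold change on this scale, with its SE (n = 3 libraries per group), understates the change of low genes. Members whose mean exceeded 1000 could not be split into libraries and were not tested, and neither could GstT4 in esc muscle (mean 856). For these the log2 ratio of the 2 group means is given instead. Counts of members whose libraries do not overlap between groups are over tested members alone, and their percentages over all genes tested. Tissue labels were checked with marker lists summed as parts per 1000000 of the normalised counts of a group (CPM): muscle genes came to 12400 to 34300 in muscle groups and 3030 to 3330 in head groups, and photoreceptor genes came to 86.7 to 149 in muscle groups and 56900 to 66900 in head groups. Gut genes came to 6580 to 15600 in the groups labelled muscle and 75 to 189 in heads, so that gut transcripts were present in the dissected muscle. Of the mutated genes, esc was lower in esc muscle (7.05, against 22.1 in WT, adjusted p = 0.0095) and esc heads (37.5, against 62.8 in WT, adjusted p = 0.0139), and Caf1, which encodes p55, was lower in p55 muscle (81.7, against 134 in WT, adjusted p = 0.00855), whereas E(z), Pcl and Su(z)12 were not called in the mutants that carry them, nor was esc in esc E(z) muscle (11.2, against 25.6 in WT, adjusted p = 0.0673) or heads.

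In WT flies at 30d the family was dominated by a few genes, and GstE12, GstD1, GstE9 and GstS1 were the 4 most abundant in either tissue. Over the 3 WT groups of each tissue, the 5 most abundant members in muscle made up 73.84% of the family's normalised counts, and the 5 most abundant in heads made up 61.65%. By CPM per kilobase of exon, the order in heads was GstE12 (436), GstD1 (371), GstE9 (251), GstE1 (122) and GstE6 (97.0). In muscle it was GstD1 (763), GstE12 (421), GstE9 (328), GstS1 (190), GstT4 (166) and GstE6 (118). GstD1, a detoxification enzyme known for its action on DDT, was the most variable of these among WT muscle groups, with 516.6 to 893.2 CPM, so that its order relative to GstE12 in muscle did not exceed its spread.

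**Figure D1:**
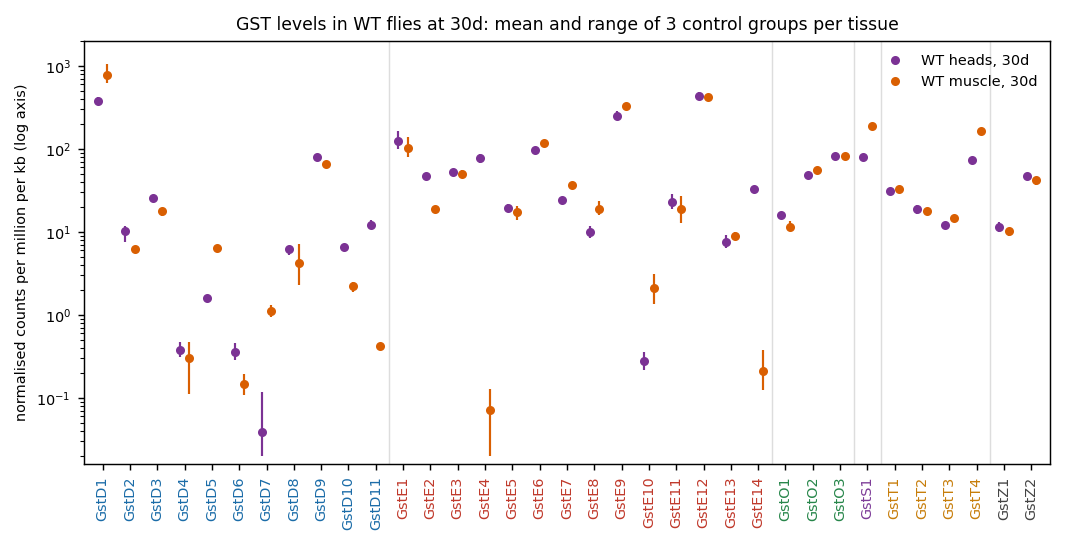
Levels of the GSTs in WT flies at 30d, in CPM per kilobase of exon (log axis), with heads in purple on the left of each pair and muscle in orange on the right. Points are means of 3 WT groups and bars their range, values under 0.02 are drawn at 0.02, and GstE4, GstE14 and GstD11 stand far higher in heads while GstD7 and GstE10 stand higher in muscle.

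Between tissues, 10 members had all 3 WT head groups above the 3 WT muscle groups, 12 had all muscle groups higher, and 13 overlapped. The groups of a tissue come from separate tables with their own size factors, so that these levels are a description without a test. The same counts were not made over all genes, so they are not shown to be particular to the family. They include members near the floor, such as GstD6 (0.277 CPM in heads and 0.113 CPM in muscle). GstE4 was at 65.1 CPM in heads and 0.060 CPM in muscle, where single WT libraries at 30d held 0 to 1.57 normalised counts. GstE14, known as Noppera-bo and needed for making the steroid hormone ecdysone, was at 33.3 CPM in heads and 0.212 CPM in muscle. GstD11 was at 13.6 in heads and 0.475 in muscle, GstE2 at 42.1 and 16.9 CPM, and GstD10 at 5.68 and 1.92 CPM. On the muscle side stood GstS1, an abundant flight muscle protein that conjugates the lipid peroxidation product 4-hydroxynonenal, with 181 ± 9.22 CPM in heads and 432 ± 11.8 CPM in muscle (SD, n = 3 groups each). GstT4 was at 89.3 in heads and 202 ± 10.6 in muscle, GstD5 at 1.33 in heads and 5.34 in muscle, GstE10 at 0.318 in heads and 2.40 in muscle, and GstD7 at 0.029 in heads and 0.831 CPM in muscle. GstE7 and GstE8 were likewise lower in heads, with 18.6 and 11.3 CPM there, against 28.1 and 21.4 in muscle. By class, the delta genes were split into 6 with heads higher, 3 with muscle higher and 2 overlapping, the epsilon genes into 3, 5 and 6, and both zeta genes overlapped.

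The leading genes of the small classes varied little to moderately among WT libraries. GstO2 had 380.9, 395.2 and 387.1 normalised counts in the WT heads that served the single mutants, and 662.8, 596.1 and 682.7 in the WT muscles of the age comparison. GstS1 had 883.9, 858.1 and 846.5 in those heads. GstT4 was more uneven in heads, with 363.2, 518.8 and 380.8, than in the WT muscles of the single mutants, with 914.9, 945.2 and 910.7. GstZ2, whose mammalian relative is the maleylacetoacetate isomerase of tyrosine breakdown, had 585.4, 528.6 and 580.3 in the same heads and 514.5, 495.4 and 446.4 in the same muscles, but ranged more widely in the WT heads of esc E(z), with 522.9, 674.3 and 778.1, and of Pcl Su(z)12, with 664, 904.1 and 765.5.

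With age more members rose than fell in muscle. Of the 25 members tested, 13 were higher at 30d than at 3d (percent of all tested genes called higher: 21.9%), 2 were lower (20.1%) and 10 were not called. The median log2 ratio over the 30 members with a mean of at least 5 was 0.376, beside 0.0215 over all genes, and 23 of the 30 had the higher mean at 30d. By the 1.5-fold rule on the deposited means, 10 members were up (11.5% of genes) and 2 down (14%). In 13 tested members every 30d library was above every 3d library (26.7% of genes) and in 2 every one was below (24.6%). By class, 3 of 6 delta genes, 5 of 11 epsilon genes, 3 of 3 theta genes and 2 of 2 zeta genes tested rose, 2 epsilon genes fell, and none of the 3 omega genes was called. In bulk samples such as these, fewer cells of a type and less RNA per cell cannot be told apart.

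Among the delta genes, GstD9 had 347, 368 and 391 normalised counts at 30d, against 173, 168 and 175 at 3d, a log2 fold change of 1.09 ± 0.09 (adjusted p = 1.35e-07). GstD2, the member with the largest rise, had 36.1, 34.1 and 30.5 at 30d, against 11, 0 and 5.09 at 3d (3.04 ± 0.64, adjusted p = 0.0013). GstD5 had 37, 60.2 and 26.6 at 30d, against 20.6, 18.6 and 17.3 at 3d (1.02 ± 0.27, adjusted p = 0.00695). All 30d libraries stood above all 3d libraries in each of these genes, and the GstD5 call was lost without 30d library 2, the highest (0.71, adjusted p = 0.0648).

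The 5 epsilon genes that rose all belong to the GstE cluster. GstE1 had 493, 564 and 497 at 30d, against 291, 349 and 291 at 3d (0.74 ± 0.09, adjusted p = 8.88e-06). GstE6 had 568, 700 and 647 at 30d, against 522, 487 and 485 at 3d (0.35, adjusted p = 0.00206). GstE8 had 138, 149 and 150 at 30d, against 125, 81.6 and 73.4 at 3d (0.67, adjusted p = 0.00385). The libraries of the 2 ages did not overlap in these genes. GstE7 had 177, 230 and 226 at 30d, against 190, 125 and 113 at 3d, so that 1 young library lay within the aged ones, and its call (0.59, adjusted p = 0.00884) was lost without 3d library 3 (0.44, adjusted p = 0.0519). GstE10, which overlaps GstE1, had 30.9, 23.8 and 21.9 at 30d, against 12.4, 16.3 and 17.3 at 3d (0.70, adjusted p = 0.0428). That call was kept in only 2 of the 6 fits that each left out 1 library, with fold changes of 0.56 and adjusted p = 0.185 without 30d library 1, 0.74 and 0.0855 without 30d library 2, 0.8 and 0.0598 without 30d library 3, and 0.56 and 0.117 without 3d library 1.

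GstE13 and GstE14 were the 2 members called lower with age. GstE13 had 66.1, 69 and 59.5 at 30d, against 181, 174 and 212 at 3d, with no overlap (-1.53 ± 0.12, adjusted p = 1.82e-07). GstE14 had 3.53, 0.793 and 3.91 at 30d, against 11, 5.83 and 21.4 at 3d (-1.84 ± 0.57, adjusted p = 0.0166). It passed the filter on low means only through the young group, and its call was lost without 30d library 2 (-1.38, adjusted p = 0.067) and without 3d library 3 (-1.41, adjusted p = 0.11).

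The theta and zeta genes that were tested all rose. GstT1 had 243, 223 and 235 at 30d, against 199, 171 and 162 at 3d (0.40, adjusted p = 0.00533). GstT2 had 126, 96.7 and 107 at 30d, against 93.5, 79.3 and 70.3 at 3d (0.44, adjusted p = 0.0246), and GstT3 had 159, 135 and 139 at 30d, against 116, 104 and 120 at 3d (0.35, adjusted p = 0.0262). The ages did not overlap in any of these genes, but the GstT2 call was lost without 30d library 1 (0.34, adjusted p = 0.133), 30d library 3 (0.45, adjusted p = 0.0578) or 3d library 3 (0.34, adjusted p = 0.098), and the GstT3 call without 30d library 1 (0.28, adjusted p = 0.133), 30d library 3 (0.37, adjusted p = 0.0547) or 3d library 2 (0.29, adjusted p = 0.0697). GstZ2 had 497, 639 and 702 at 30d, against 367, 405 and 375 at 3d (0.67, adjusted p = 1e-04). GstZ1 had 78.4, 67.4 and 75.9 at 30d, against 38.5, 42 and 64.2 at 3d (0.64, adjusted p = 0.0127), without overlap, and its call was lost without 30d library 1 (0.60, adjusted p = 0.0512).

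**Figure D2:**
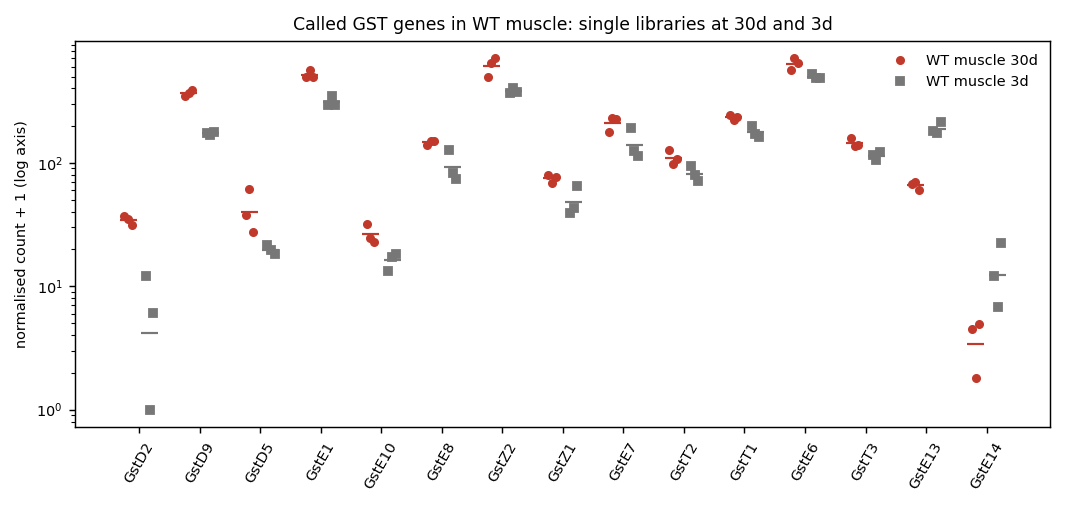
Normalised counts (plus 1, log axis) of the 15 GSTs called between WT muscles at 30d (red circles, left) and 3d (grey squares, right). Each point is 1 library and each bar the mean of the log2 values of 3 libraries; GstE13 and GstE14 are lower at 30d, and GstE7 is the called gene whose ages overlap.

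The 5 most abundant members in muscle had no test, and 4 of them had a higher mean at 30d. GstD1 averaged 3798 normalised counts at 30d and 2679 at 3d (log2 ratio 0.50), GstE12 averaged 3955 and 2982 (0.41), GstE9 1847 and 1070 (0.79), and GstT4 1544 and 1336 (0.21). GstS1 went the other way, with 3103 at 30d and 4558 at 3d (-0.55). The median SE of genes with means between 300 and 1000 was 0.0753 in this comparison, which gives the scale of replicate error for abundant genes but is no test of these.

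The age comparison depended on how the 2 groups were scaled. The normalised counts summed to 7305280 at 30d and 11591900 at 3d, and scaling both groups to equal sums instead of by size factors moved the median of all genes to 0.70, with 6256 genes called higher and 269 lower. On that scale 22 members rose, and GstE13 and GstE14 still fell. The marker lists differed as well, which cannot tell a change of tissue makeup from a change in the expression of the marker genes. The summed normalised counts of the muscle list were 112806 at 30d and 398145 at 3d, with 11 of its 12 genes lower by at least 1.5-fold and 1 higher. The neuron list summed to 5502 at 30d and 10186 at 3d, the fat body list to 61438 and 49953, the gut list to 82901 and 76227, the hemocyte list to 4669 and 5015, and the Malpighian tubule list to 407 and 222. Given as CPM, muscle came to 15442 at 30d and 34347 at 3d, neuron to 753 and 879, and fat body to 8410 and 4309. On the same scale gut came to 11348 and 6576, hemocyte to 639 and 433, and Malpighian tubule to 55.7 and 19.1. The part of these differences in the GST values was not tested.

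Between PRC2 mutants and WT at 30d, calls in the family were mostly epsilon genes and mostly small in fold change. Over 13 comparisons (7 in muscle and 6 in heads) 25 of 337 tests were called, 8 higher and 5 lower in muscle, and 9 higher and 3 lower in heads. Among all genes tested, the calls per comparison and direction lay between 63 of 8515 (lower in Su(z)12 heads) and 303 of 8426 (lower in Pcl heads). That range is for single directions, whereas the 25 calls pool both directions and all comparisons. The pooled share is thus not on the same scale as the range. The share of all genes in each comparison is given below. Of the 25, 21 were epsilon genes, which made up 133 of the 337 tests, and 17 were in the GstE cluster. They fell on 14 different members, and 12 members were called in none of the 14 comparisons, age included. The single mutants of a tissue share 1 WT group, and the WT muscles at 30d of the age comparison are also the control of Pcl Su(z)12 muscle, so that calls in such comparisons are not independent of each other.

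**Figure D3:**
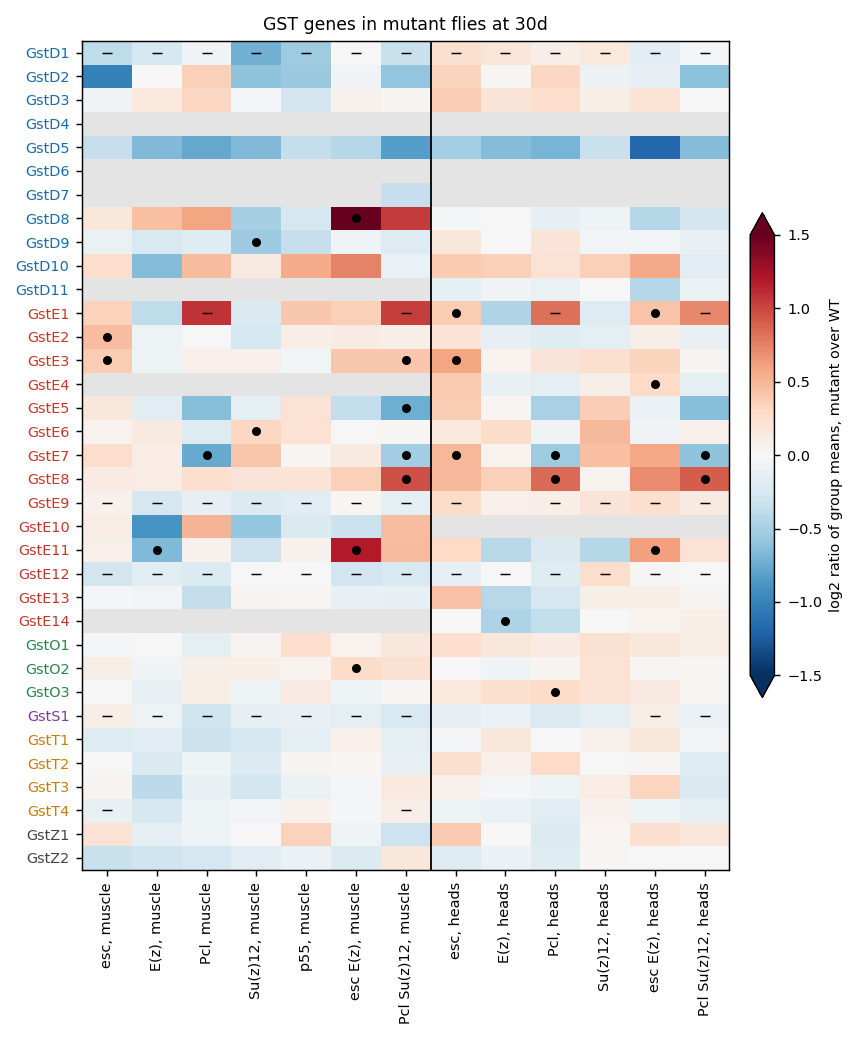
Log2 ratio of the group means, mutant over WT, for each GST (down the page, by class) in the 13 mutant comparisons (across). A black dot marks a call and grey an average of the 2 group means under 5. A dash marks a gene without a test because its libraries were not split (a mean above 1000, except for GstT4 in esc muscle). The colour scale ends at 1.5 in either direction, and the dots gather in the epsilon genes.

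The 4 comparisons that carry a Pcl deletion (Pcl and Pcl Su(z)12, in muscle and heads) differed from WT in genes of the GstE cluster, with GstE7 lower in all 4, GstE8 higher in 3 and GstE1 higher in the 3 that could be tested. In Pcl muscle, 1 of 24 members tested was called lower (percent called lower among all genes: 1.37%) and none higher (1.63%). Counted by 1.5-fold, 2 members were up (2.87% of genes) and 3 down (2.26%) in Pcl muscle. Of the members tested, which leave out GstE1, 0 had every Pcl library above every WT library (9.05%) and 3 every one below (10.1%). The call was that of GstE7, with 75.6, 88.7 and 70.4 normalised counts in Pcl muscle, against 133.5, 142 and 119.7 in WT (-0.75 ± 0.13, adjusted p = 0.00292). In Pcl Su(z)12 muscle, 2 of 24 members were called lower (2.16%) and 2 higher (2.18%). With 1.5-fold as the rule, 3 members were up (3.83% of genes) and 3 down (2.94%) in Pcl Su(z)12 muscle. Again with GstE1 left out, 6 tested members had every Pcl Su(z)12 library above every WT library (11.3%) and 5 every one below (10.6%). GstE7 had 142, 141 and 156 there, against 177, 230 and 226 in WT (-0.52 ± 0.11, adjusted p = 0.0212), and the call was lost without Pcl Su(z)12 library 2 (-0.49, adjusted p = 0.0765), WT library 2 (-0.45, adjusted p = 0.105) or WT library 3 (-0.46, adjusted p = 0.108). No mutant library overlapped with WT in either.

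In Pcl heads, 1 of 27 members tested was called lower (3.6%) and 2 higher (2.8%). By the 1.5-fold rule 2 members were up (2.69% of genes) and 1 down (2.75%) in Pcl heads. Among tested members, without GstE1, 3 had every Pcl library above every WT library (11.2%) and 4 every one below (11.4%). GstE7 had 51, 69.4 and 78.4 in Pcl heads, against 98.1, 100 and 88.4 in WT (-0.54 ± 0.15, adjusted p = 0.0371), without overlap, but the call was kept in only 1 of 6 fits that left out a library, and without Pcl library 1, the lowest, the difference was -0.37 (adjusted p = 0.199). It was also lost without Pcl library 2 (-0.59, adjusted p = 0.0813) and without each WT library (-0.6 to -0.51, adjusted p = 0.0537 to 0.108). In Pcl Su(z)12 heads, 1 of 26 members was called lower (1.51%) and 1 higher (1.83%). Counted by 1.5-fold, 2 members were up (2.99% of genes) and 4 down (3.03%) in Pcl Su(z)12 heads. Among tested members, without GstE1, 1 had every Pcl Su(z)12 library above every WT library (9.38%) and 3 every one below (9.8%). GstE7 had 85.8, 99.1 and 93.7 there, against 141, 160 and 122 in WT (-0.59 ± 0.13, adjusted p = 0.0184), again without overlap. That call was kept in 2 of 6 fits and lost without Pcl Su(z)12 library 1 (-0.54, adjusted p = 0.0764) or library 3 (-0.6, adjusted p = 0.057) and without WT library 1 (-0.59, adjusted p = 0.0842) or library 2 (-0.5, adjusted p = 0.119).

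GstE8, the neighbour of GstE7, was higher in the same flies. It had 275, 254 and 323 in Pcl Su(z)12 muscle, against 138, 149 and 150 in WT (0.95 ± 0.10, adjusted p = 0.000333). In Pcl Su(z)12 heads it had 134, 171 and 166, against 96.9, 88.5 and 65.3 in WT (0.91 ± 0.15, adjusted p = 0.00385), and in Pcl heads 118, 110 and 119, against 49, 73.6 and 69.5 in WT (0.86 ± 0.15, adjusted p = 0.000804). Mutant and WT libraries did not overlap in these 3 comparisons, and each call was kept whichever library was left out. In Pcl muscle GstE8 averaged 141 in the mutant and 119 in WT with overlapping libraries (0.26 ± 0.13, adjusted p = 0.389).

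GstE1 exceeded a mean of 1000 in each of the 4 Pcl-carrying groups and so had no test at the main limit. With the limit raised to 2000, a setting chosen after the data were seen, the libraries of 3 comparisons could be recovered. GstE1 had 1192, 1060 and 1095 in Pcl muscle, against 420, 533 and 626 in WT (1.10, adjusted p = 1.6e-05, with 1.71% of genes called higher at this limit). In Pcl Su(z)12 muscle it had 983.9, 1083 and 1129, against 493, 564 and 497 in WT (1.04, adjusted p = 1.4e-05, with 2.33% of genes), and in Pcl Su(z)12 heads 1032, 1086 and 1009, against 689, 638 and 568 in WT (0.73, adjusted p = 0.000114, with 1.88% of genes). In each the lowest mutant library was above the highest WT library. Pcl heads averaged 1193 and their WT heads 672 (log2 ratio 0.83), and these libraries could not be recovered.

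Of the other genes of the cluster, GstE5 and GstE3 were called, both in Pcl Su(z)12 muscle. GstE5 had 45.6, 73.8 and 76.9 in Pcl Su(z)12 muscle, against 99.6, 129 and 98.6 in WT (-0.75 ± 0.19, adjusted p = 0.0483). GstE3 had 318, 351 and 335 there, against 239, 233 and 289 in WT (0.41, adjusted p = 0.0271). Neither gene overlapped between the groups, and each call was kept in 2 of 6 fits. The GstE5 difference without 1 library lay between -0.86 (adjusted p = 0.0658, without Pcl Su(z)12 library 2) and -0.63 (adjusted p = 0.194, without WT library 2) and was also lost without WT library 1 or 3. The GstE3 difference was lowest without WT library 2 (0.35, adjusted p = 0.116) and was also lost without WT library 1 and without Pcl Su(z)12 library 2 or 3.

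**Figure D4:**
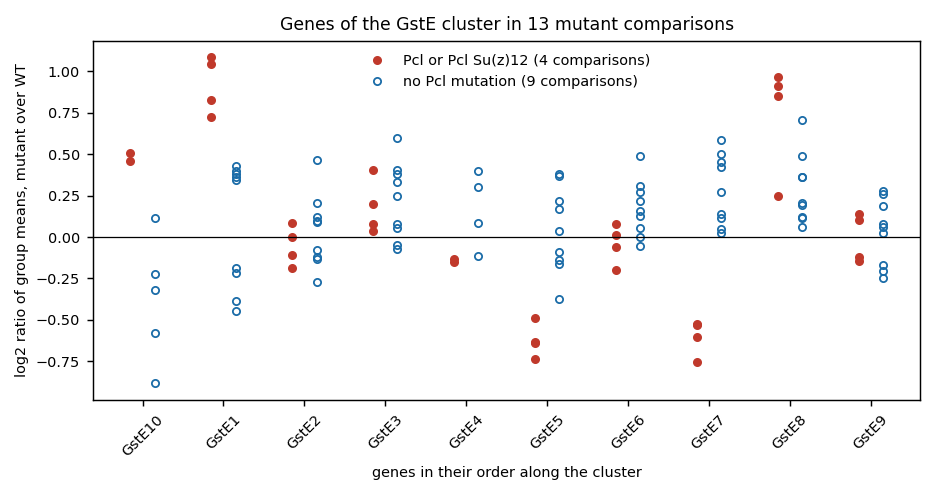
Log2 ratio of the group means, mutant over WT, for the 10 genes of the GstE cluster in their order along 2R. Filled red points on the left of each pair are the 4 comparisons of Pcl-carrying flies and open blue points on the right the 9 other mutant comparisons; GstE7 lies between -0.75 and -0.53 in red and between 0.03 and 0.59 in blue, and GstE1 between 0.72 and 1.08 in red and between -0.45 and 0.43 in blue.

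Set against the 9 comparisons without a Pcl deletion, GstE7, GstE5, GstE1, GstE10 and GstE4 had log2 ratios that did not overlap. GstE7 lay between -0.75 and -0.53 in the Pcl-carrying comparisons and between 0.03 and 0.59 in the others. GstE5 lay between -0.74 and -0.49, against -0.37 to 0.38 in the others. GstE1 lay between 0.72 and 1.08, against -0.45 to 0.43, whereas GstE8 (0.25 to 0.96, against 0.06 to 0.70) and GstE6 (-0.20 to 0.08, against -0.05 to 0.49) overlapped. GstE10 had a mean of at least 5 in muscle alone, with 0.46 to 0.51 in the 2 Pcl-carrying comparisons and -0.88 to 0.11 in 5 others, and GstE4 in heads alone, with -0.15 to -0.13 in 2 and -0.12 to 0.40 in 4 others, and neither was called in a Pcl-carrying comparison. These ranges are a description, since comparisons of the same tissue share controls.

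The difference was tested as Pcl minus the mean of the esc, E(z) and Su(z)12 single mutants, a contrast between mutants alone that was added after the data were seen. In muscle, where 3.95% of all genes were called higher and 3.81% lower, GstE7 was lower in Pcl by 1.01 on the log2 scale (-1.01 ± 0.11, adjusted p = 2.72e-07), and GstE5 (-0.57, adjusted p = 0.0143) and GstE6 (-0.36, adjusted p = 0.00103) were lower too. GstD2 was higher (0.88, adjusted p = 0.0296), GstE1 was higher with the limit at 2000 (1.18, adjusted p = 2.55e-09, beside 4.0% of genes called higher), and GstE8 was not called (0.11, adjusted p = 0.66). In heads, where 1.01% of genes were called higher and 2.44% lower, GstE8 was higher (0.55, adjusted p = 0.0151), and GstE7 (-0.86, adjusted p = 5.2e-04), GstE5 (-0.75, adjusted p = 0.00225) and GstE6 (-0.36, adjusted p = 0.0191) were lower.

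**Figure D5:**
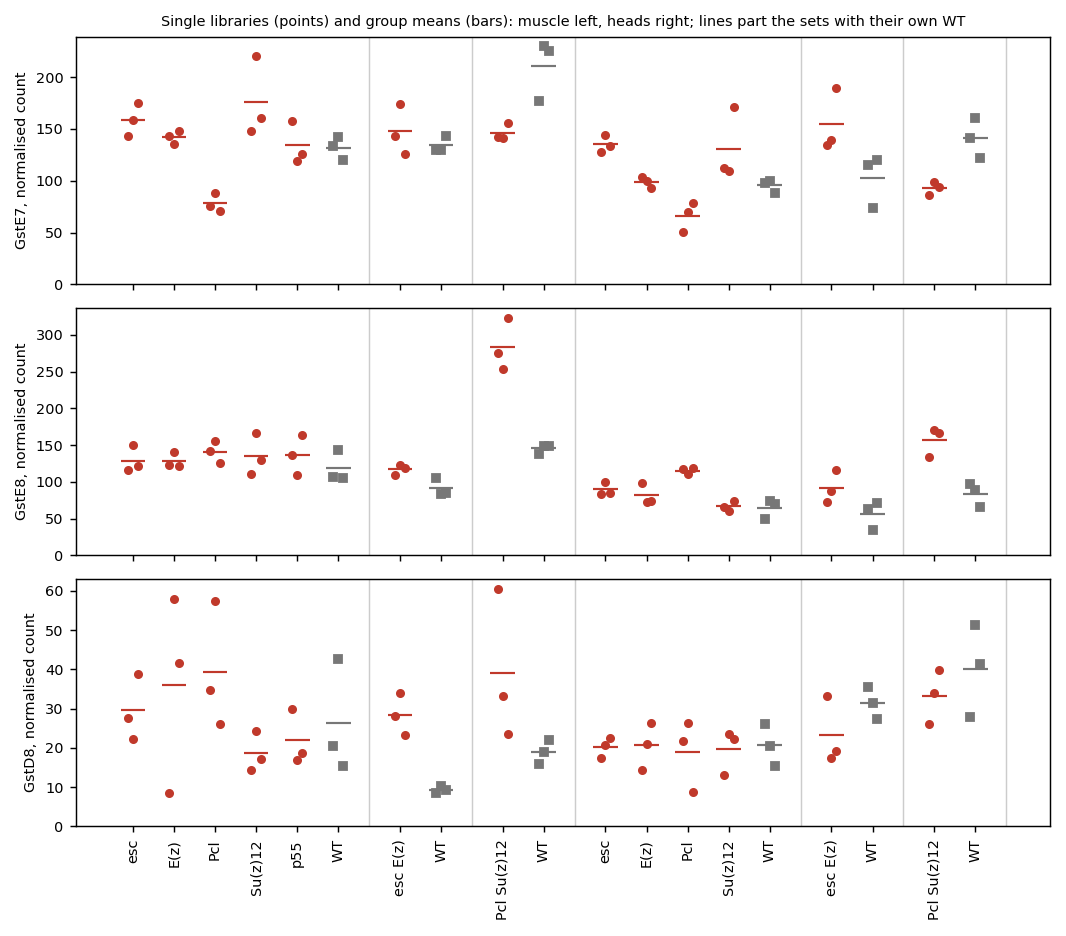
Normalised counts of GstE7, GstE8 and GstD8 in single libraries of the 30d groups, muscle on the left and heads on the right of each row, with mutants as red circles set before their WT as grey squares and bars for group means. GstE7 is below WT in Pcl and Pcl Su(z)12 of both tissues, GstE8 is above WT in 3 of those 4, and GstD8 is low in the WT muscles of esc E(z), at 8.51 to 10.3.

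The GstE cluster lies near Pcl. Within 1000 kb of Pcl, 10.9% of tested genes were called in Pcl heads, against 6.3% elsewhere in the genome, and 4.35% against 2.97% in Pcl muscle. In Pcl Su(z)12 flies the shares were 5.46% near Pcl and 4.32% elsewhere in muscle, and 4.6% and 3.32% in heads. With the GSTs left out, the shares near Pcl were 10.3% in Pcl heads, 3.98% in Pcl muscle, 3.61% in Pcl Su(z)12 heads and 3.43% in Pcl Su(z)12 muscle, the last of which is below the share elsewhere. The share near Pcl was also larger than elsewhere in 6 of the 9 comparisons without a Pcl deletion, and in 5 of the 9 with the GSTs left out. Examples are 5.98% against 3.11% in E(z) muscle and 5.41% against 3.64% in esc heads. With the GSTs left out, the shares near Pcl in these examples were 5.71% and 3.98%. These shares are a description without a test. The part of the chromosome region that comes with the Pcl deletion in these values was not tested.

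In esc E(z) muscle, 3 of 25 members tested were higher than in WT (2.2% of genes called higher) and none was lower (2.54%). With 1.5-fold as the rule, 3 members were up (2.46% of genes) and 0 down (3.2%) in esc E(z) muscle, and 7 members had every esc E(z) library above every WT library (11.8%) and 1 every one below (10.9%). GstD8 had 28.1, 34.1 and 23.3 in esc E(z) muscle, against 8.51, 10.3 and 9.26 in WT (1.5 ± 0.24, adjusted p = 0.00359). GstE11 had 150, 128 and 138 in esc E(z) muscle, against 80.3, 54.6 and 47.7 in WT (1.21 ± 0.17, adjusted p = 0.00117). GstO2, an omega gene, had 623, 662 and 599, against 528, 501 and 527 in WT (0.27 ± 0.06, adjusted p = 0.028). None of the 3 overlapped, and the GstD8 and GstE11 calls were kept whichever library was left out. The GstO2 call was kept in 2 of 6 fits and was lost without esc E(z) library 1 or 2 and without WT library 2 or 3, with fold changes of 0.24 (adjusted p = 0.122, without esc E(z) library 2) to 0.29 (adjusted p = 0.0596, without WT library 3). The WT group of this comparison was itself low in GstD8 and GstE11. The other WT muscle libraries at 30d, in tables with their own size factors, held 15.5 to 42.7 of GstD8, which spans the esc E(z) values. Of GstE11 they held 104.9 to 130.3, which reaches the lowest esc E(z) value. GstO2 was not low in this WT group, with 102 CPM, against 88.6 and 96.0 CPM in the other WT muscle groups at 30d. The photoreceptor list summed to 453 in esc E(z) muscle and 757 in its WT, and its part in these values was not tested.

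The other muscle comparisons held 5 calls. In esc muscle, 2 of 24 members were higher (2.26% of genes) and none lower (2.65%). By the 1.5-fold rule 0 members were up (3.11% of genes) and 1 down (3.34%) in esc muscle, and 3 members had every esc library above every WT library (10.2%) and 2 every one below (11%). GstE2 had 100, 109 and 101 in esc muscle, against 70.7, 79.4 and 74.9 in WT (0.46 ± 0.13, adjusted p = 0.0405), and GstE3 had 240, 239 and 251, against 171, 211 and 179 in WT (0.38, adjusted p = 0.0263). The groups did not overlap, but each call was kept in only 1 of 6 fits that left out a library. The GstE2 fold change was then 0.42 to 0.48, with adjusted p = 0.0653 (without WT library 3) to 0.167 (without esc library 2), and it was also lost without WT library 1 or esc library 1 or 3. The GstE3 fold change was 0.32 to 0.4, with adjusted p = 0.0605 (without WT library 3) to 0.133 (without WT library 1), and it was also lost without each esc library.

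In E(z) muscle, 1 of 25 members was lower (1.95% of genes) and none higher (1.22%). Counted by 1.5-fold, 0 members were up (2.73% of genes) and 4 down (2.91%) in E(z) muscle, and 1 member had every E(z) library above every WT library (9.4%) and 5 every one below (10.2%). GstE11 had 73.6, 80 and 63.5 in E(z) muscle, against 105, 108 and 130 in WT (-0.65 ± 0.14, adjusted p = 0.0134). The libraries did not overlap, and the call was lost without E(z) library 3 (-0.57, adjusted p = 0.0772) or WT library 3 (-0.56, adjusted p = 0.0619). GstE11 thus had opposite calls in E(z) and esc E(z) muscle, each against its own WT group, and the libraries of those WT groups did not overlap (104.9 to 130.3 in one and 47.7 to 80.3 in the other).

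In Su(z)12 muscle, 1 of 25 members was lower (3.17% of genes) and 1 higher (3.19%). With 1.5-fold as the rule, 0 members were up (3.74% of genes) and 3 down (3.62%) in Su(z)12 muscle, and 2 members had every Su(z)12 library above every WT library (11.4%) and 3 every one below (11.7%). GstD9 had 157, 193 and 158 in Su(z)12 muscle, against 222, 278 and 244 in WT (-0.55 ± 0.11, adjusted p = 0.00592), without overlap and in every fit that left out a library. GstE6 had 515, 534 and 530, against 448, 459 and 369 in WT (0.31, adjusted p = 0.0408), a call kept in 1 of 6 fits. Without WT library 3, the lowest, the GstE6 difference was 0.21 (adjusted p = 0.168), and it was also lost without WT library 1 and without each Su(z)12 library (0.3 to 0.35, adjusted p = 0.0685 to 0.145). In p55 muscle no member was called by limma among 25 tested (1.17% of genes higher and 0.855% lower), and 2 had an unadjusted p under 0.05 (6.55% of genes higher and 6.44% lower), GstE1 (0.41) and GstD9 (-0.36). By the 1.5-fold rule 0 members were up (3.67% of genes) and 0 down (2.42%) in p55 muscle, and 1 member had every p55 library above every WT library (9.02%) and 1 every one below (9.49%).

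In esc heads, 3 of 28 members tested were higher (2.26% of genes), all epsilon genes, and none lower (1.41%). Counted by 1.5-fold, 1 member was up (2.28% of genes) and 0 down (2.21%) in esc heads, and 8 members had every esc library above every WT library (9.75%) and 1 every one below (9.11%). GstE3 had 255, 288 and 270 in esc heads, against 177, 205 and 156 in WT (0.60 ± 0.10, adjusted p = 0.000519), and this call was kept in all fits that left out a library. GstE7 had 128, 145 and 133, against 98.1, 100 and 88.4 in WT (0.50 ± 0.11, adjusted p = 0.012), and GstE1 had 914, 811 and 894, against 504, 739 and 773 in WT (0.40, adjusted p = 0.0287). The groups did not overlap in these genes. The GstE7 call was lost without WT library 3 (0.44, adjusted p = 0.0696) or esc library 2 (0.45, adjusted p = 0.0807). The GstE1 call was lost without WT library 1, its lowest (0.21, adjusted p = 0.0925), and without each esc library (0.37 to 0.45, adjusted p = 0.0543 to 0.139). The epsilon class as a whole had 12 of 13 mean ratios above 1 in esc heads, with a median log2 ratio of 0.38, beside -0.000332 over all genes. The share of all genes with a ratio above 1 was not computed. These epsilon ratios share 1 WT group and most of the genes are neighbours, so that they are not independent of each other. Of the 28 members 13 were higher and 2 lower at an unadjusted p under 0.05 (7.57% and 6.43% of genes).

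In esc E(z) heads, 3 of 27 members were higher (2.88% of genes) and none lower (2.38%), again all epsilon genes. With 1.5-fold as the rule, 3 members were up (2.79% of genes) and 1 down (3.43%) in esc E(z) heads, and 7 members had every esc E(z) library above every WT library (11%) and 2 every one below (11.7%). GstE1 had 684, 632 and 675 in esc E(z) heads, against 564, 447 and 468 in WT (0.44 ± 0.08, adjusted p = 0.00568), in every fit that left out a library. GstE11 had 177, 166 and 187, against 146, 79 and 120 in WT (0.66 ± 0.17, adjusted p = 0.034), and GstE4, which is almost absent from muscle, had 488, 485 and 460, against 414, 364 and 383 in WT (0.30, adjusted p = 0.0243). No library overlapped. The GstE11 call was lost without WT library 2, the lowest (0.41, adjusted p = 0.0915), and without each esc E(z) library (0.62 to 0.71, adjusted p = 0.0743 to 0.131). The GstE4 call was kept in 1 of 6 fits, with 0.26 (adjusted p = 0.105) without WT library 2, 0.3 (adjusted p = 0.0522) without WT library 3, and 0.29 to 0.33 (adjusted p = 0.0576 to 0.0998) without each esc E(z) library. Among the heads, gut genes summed to 1451 in Pcl Su(z)12 and 584 in its WT, to 662 in esc E(z) and 444 in its WT, and to 558 in Pcl and 387 in its WT, and their part in the head values was not tested.

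In E(z) heads, 1 of 29 members was lower (1.81% of genes) and none higher (2.31%). By the 1.5-fold rule 0 members were up (2.85% of genes) and 1 down (2.33%) in E(z) heads, and 2 members had every E(z) library above every WT library (10.7%) and 3 every one below (10.3%). GstE14 had 107, 102 and 118.5 in E(z) heads, against 139, 149 and 163 in WT (-0.46, adjusted p = 0.0271), without overlap. The call was kept in 2 of 6 fits and lost without E(z) library 1 (-0.44, adjusted p = 0.0537) or 2 (-0.41, adjusted p = 0.107) and without WT library 2 (-0.46, adjusted p = 0.0806) or 3 (-0.4, adjusted p = 0.177). In Pcl heads the omega gene GstO3 had 417, 416 and 408, against 313, 368 and 346.5 in WT (0.28, adjusted p = 0.0292), also without overlap, and this call was kept in 1 of 6 fits. The lowest GstO3 value, without WT library 1, was 0.21 (adjusted p = 0.139), and it was also lost without WT library 3 and without each Pcl library (0.27 to 0.29, adjusted p = 0.0576 to 0.105).

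In Su(z)12 heads no member was called by limma among 28 tested (1.75% of genes higher and 0.74% lower), and 3 were higher at an unadjusted p under 0.05 (9.38% of genes higher and 8% lower): GstE5 (0.37), GstE6 (0.48) and GstE7 (0.42). Counted by 1.5-fold, 0 members were up (4.63% of genes) and 0 down (2.79%) in Su(z)12 heads, and 5 members had every Su(z)12 library above every WT library (13.1%) and 1 every one below (12.6%). Library 3 of Su(z)12 heads stood apart from its group, with a median ratio of 0.942 to the mean of its group, itself included. Without it GstE11 was called lower (-0.67, adjusted p = 0.0255) and GstE6 higher (0.37, adjusted p = 0.0303).

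Outside the epsilon class, 4 of the 25 calls were found, those of GstD8, GstD9, GstO2 and GstO3. GstD5 had a log2 ratio of means below 0 in each of the 13 mutant comparisons, between -1.18 and -0.33, but was called in none, and its test values ranged from a fold change of -1.02 (adjusted p = 0.336, esc E(z) heads) to 0.15 (adjusted p = 0.92, Su(z)12 heads). These ratios rest in part on single high WT libraries: GstD5 had 18.25, 13.9 and 39.1 in the WT muscles and 1.044, 13.73 and 4.512 in the WT heads that the single mutants share. Without WT muscle library 3 the ratio was above 0 in esc (0.21) and p55 muscle (0.2), and without WT head library 2 it was above 0 in heads of Su(z)12 (0.88), esc (0.7), E(z) (0.56) and Pcl (0.51), a setting chosen after the data were seen. In the 7 other comparisons it stayed below 0 without the highest WT library, between -0.76 and -0.09. Leaving out the highest WT library raises a ratio by construction. With another WT library left out instead, the ratio was as low as -0.62 in esc and -0.63 in p55 muscle. In heads it was then as low as -0.83 in Su(z)12, -1.01 in esc, -1.15 in E(z) and -1.21 in Pcl. Of the abundant members that mostly had no test, GstD1 had log2 ratios between -0.72 and 0.24, GstE12 between -0.28 and 0.26, GstE9 between -0.25 and 0.28, GstS1 between -0.30 and 0.09, and GstT4 between -0.11 and 0.08, beside a median SE of 0.0665 to 0.114 for genes with means of 300 to 1000. The lowest GstD1 ratio was that of Su(z)12 muscle, with 2448 in the mutant and 4042 in WT, and that WT group was the highest in GstD1 among the WT muscles. With the limit raised to 2000, GstE9 was called higher in esc heads (0.28, adjusted p = 0.0139, with 2.46% of genes called higher) and in esc E(z) heads (0.26, adjusted p = 0.0485, with 3.48%).

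The genotype effect in heads was compared with that in muscle by an interaction term in limma for each of the 6 genotypes measured in both tissues. Of 22 to 24 members tested per genotype, 1 was called, GstD8 in esc E(z) (heads minus muscle: -1.96 ± 0.36, adjusted p = 0.0185), where 0.145% of 7604 genes were called lower and 0.0921% higher. None was called in esc (0.267% of genes higher and 0.0935% lower), E(z) (0.471% and 0.17%), Pcl (0.105% and 0.171%), Su(z)12 (0.535% and 0.261%) or Pcl Su(z)12 (0.162% in either direction), where the interaction is heads minus muscle. An unadjusted p under 0.05 was found in 13 tests of members over the 6 genotypes. These were 3 of 23 in esc (664 of 7490 genes), 1 of 24 in E(z) (765 of 7643) and 2 of 23 in Pcl (638 of 7592). The rest were 1 of 24 in Su(z)12 (928 of 7660), 2 of 24 in esc E(z) (733 of 7604) and 4 of 22 in Pcl Su(z)12 (726 of 7403). In heads GstD8 had 33.3, 17.4 and 19.1 in esc E(z), against 35.5, 31.4 and 27.3 in WT, with overlap, while in muscle it was higher than in its low WT group. The call was lost, with adjusted p of 0.0626 to 0.0744, without esc E(z) head library 2 or 3, WT head library 1, or esc E(z) muscle library 1 or 2. For all other members a call in 1 tissue and none in the other is therefore not shown to be a difference between the tissues.

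Of 9 regulators and glutathione genes that act around the GSTs, 3 or 4 were tested in each comparison. GS, CG32495 and Trxr-2 were at or near 0 in all groups. Shared sequence was checked for the GSTs alone, so whether reads of these 3 genes were lost in mapping or counting was not tested. Their values are thus not shown to be an absence of expression. The genes cnc and Trxr-1, a thioredoxin reductase that recycles glutathione in flies, had means above 1000 and no test. Trxr-1 averaged 3431 at 30d and 2304 at 3d (log2 ratio 0.57). Gclm, the modifier subunit of the enzyme that starts glutathione synthesis, had 407, 412 and 418 in esc muscle, against 332, 320 and 329 in WT (0.33, adjusted p = 0.0135), and was also higher in Su(z)12 muscle (0.34, adjusted p = 0.0247). In Su(z)12 muscle Keap1 was lower (-0.50, adjusted p = 0.044) and maf-S higher (0.30, adjusted p = 0.048), and maf-S was higher in E(z) heads (0.32, adjusted p = 0.0132). None of the genes tested was called in the other comparisons, age included. Of 5 further genes related to GSTs by sequence, gfzf, a zinc finger protein with a GST domain, fell with age, with 294, 319 and 299 at 30d, against 466, 480 and 465 at 3d (-0.63). The gene sepia (se), an omega-type enzyme of red eye pigment synthesis, had 183, 201 and 167 in Pcl heads, against 233, 254 and 256 in WT (-0.43, adjusted p = 0.00591), and 686, 484 and 615 in esc E(z) heads, against 402, 358 and 400 in WT (0.61, adjusted p = 0.00265). No library overlapped between the groups in these genes.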

How the data were processed

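The 60 mRNA libraries (20 groups of 3) were analysed, and the study calls them biological replicates; p-values measure the spread between these libraries. Per the labels and the study's methods, polyA RNA was sequenced single-end, the reads were aligned with STAR to dm6 and counted per gene with HTSeq (intersection-strict, without strand), and the authors divided them by size factors with DESeq; no versions are given in the sources used here. The values the authors deposited are a signal, the mean normalised count of each group, in 14 tables of 17023 genes; the tables also hold the authors' fold changes and p-values, which were not used. The other 75 libraries, of ChIP and small RNA, were not used here.

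Whole reads per library were solved from the 10 digits of the deposited means below 1000 (Python 3.11.15, numpy 2.4.6, numba 0.67.0). Every split was tried up to a mean of 300; above it, and where a mean over 100 had several solutions, libraries were held within 2-fold of the mean, and within 1.5-fold where several still remained (2070 group means). This solved 97.18 to 100% of genes with means below 1000, and 89.89 to 95.35% of all genes, short in most tables of the 95% planned for this test, so that counts by a 1.5-fold rule on the means, the planned substitute, are given as well. Tested on simulated data, 99.26% of 222548 genes were solved and 0 wrongly, and of genes solved at the raised limit (means of 1000 to 2000) 1.88% were wrong. At the raised limit libraries were held within 1.25-fold of the group mean. Size factors were 0.7274 to 1.545. The 2 groups of each table were compared with limma 3.58.1 in R 4.3.3 (lmFit, eBayes with trend) on log2(normalised count + 1), with Benjamini-Hochberg adjustment over all genes with a mean of at least 5. On simulated data the age comparison (8298 genes) recovered 85% of 2-fold and 53% of 1.5-fold changes, Pcl Su(z)12 muscle (8552 genes) 87% and 46%, and esc heads (8501 genes) 82% and 47%, and 2.82%, 2.21% and 7.19% of the calls in these simulations were false, in that order of comparisons. The simulations of the solving and of the test gave every gene the same spread between libraries. Their shares thus do not carry over to genes or libraries that vary more.

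Library values are printed for called members, for the leading member of each class in WT where its libraries could be solved (not GstD1 or GstE12), and for the 2 largest rises and falls with age, and other members are given by counts and ranges. No 2 libraries of a group agreed within sampling noise. The members and lists were chosen with earlier results of these data known. The alternatives tried were the pseudocount (0.1 or 10), the filter on low means (none or 20), the scaling, all groups in 1 fit, the threshold, and leaving out each library; the equal-sums scaling, the limit of 2000 and the contrast of Pcl with other mutants were added after the data were seen, and the 1.5-fold rule, planned only as a substitute, was then run beside the test.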

Additional observations from a re-analysis of the deposited data

Results flagged for a closer look

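The mutant effect passed a test of the difference between tissues in 1 member. In another, untested, the ratios of means had opposite signs, with muscle values near the floor. GstD8 in esc E(z) flies had a mutant effect in heads minus that in muscle of -1.96 on the log2 scale by the interaction test in limma (adjusted p = 0.0185, and 0.0626 to 0.0744 in the 5 of 12 fits without 1 library that lost the call), with 33.3, 17.4 and 19.1 normalised counts in esc E(z) heads, against 35.5, 31.4 and 27.3 in WT heads, and 28.1, 34.1 and 23.3 in esc E(z) muscle, against 8.51, 10.3 and 9.26 in WT muscle. GstE14 in E(z) flies was lower than WT in every head library (107, 102 and 118.5, against 139, 149 and 163). In muscle it had 1.21, 1.05 and 2.08 normalised counts, against 0, 0.993 and 0.815 in WT, which are a few reads or none per library. The difference in log2 ratio of -1.73 rests on these muscle values and was not tested, since the muscle means were under 5.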

How the results depend on the processing

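No paired analysis was possible because the columns carry no replicate numbers. No value reversed under any alternative. Of 41 calls of single members, 13 were kept under every alternative; over all alternatives, 594 values of called members kept their call and 133 lost it. With age, 15 members were called, and 24 with equal sums. An unadjusted p under 0.05 gave 44 calls in place of 13 in mutant muscle and 44 in place of 12 in mutant heads. Over all genes this threshold called between 1109 of 8536 (p55) and 1607 of 8529 (Su(z)12) per comparison in muscle. In heads it called between 1189 of 8492 (esc) and 1521 of 8426 (Pcl). By comparison it gave 12 calls for Pcl Su(z)12, 9 for esc E(z), 6 for esc, 6 for E(z), 5 for Pcl, 4 for Su(z)12 and 2 for p55 in muscle, 15 for esc, 9 for esc E(z), 7 for Pcl, 6 for E(z), 4 for Pcl Su(z)12 and 3 for Su(z)12 in heads, and 13 for the interaction. Asking for 1.5-fold besides the adjusted p gave 6 in mutant muscle and 5 in mutant heads, with 0 in esc, 0 in Su(z)12 and 2 in Pcl Su(z)12 muscle, and 1 in esc, 0 in E(z), 1 in Pcl and 1 in esc E(z) heads. The 1.5-fold rule on the means gave 22 in mutant muscle, with 1 in esc, 4 in E(z) and 5 in Pcl, and 1 in esc heads and 6 in Pcl Su(z)12 heads. All groups in 1 fit gave 0 in esc and 2 in Pcl Su(z)12 muscle, and 1 in esc, 1 in Pcl and 1 in Su(z)12 heads (GstE6, 0.48, adjusted p = 0.00604). Equal sums gave 1 in Su(z)12 muscle and 2 in E(z) heads, and the limit of 2000 gave 2 in Pcl muscle. A mean of at least 20 left 0 in the interaction, because GstD8 was no longer tested. The cause of the other changes was not tested.

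Without 1 library the counts were 11 to 15 with age, 10 to 15 in mutant muscle, 8 to 14 in mutant heads and 0 to 1 in the interaction. In muscle they were 1 to 6 for Pcl Su(z)12, 2 to 5 for esc E(z), 1 to 2 for Pcl and for Su(z)12, 0 to 2 for esc and for E(z), and 0 to 1 for p55. In heads they were 2 to 4 for esc, 1 to 4 for esc E(z), 1 to 3 for Pcl and for Pcl Su(z)12, 0 to 3 for E(z) and 0 to 2 for Su(z)12. Of the 40 calls with age and in mutants, 17 were kept whichever library was left out. Members with means above 1000 have no test, and members with means under 5 were not tested, so that changes there were not detectable.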
